A study of Mus musculus with 14 samples.

Results

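The genes of iron homeostasis examined here were Hamp, Hamp2, Bmp6, Hfe, Tfr2, Smad7, Trf, Tfrc, Slc40a1 and Ftl1. They are core genes of iron control in the liver and Hamp2, a duplicate of Hamp. All were chosen by name, with earlier results of these data known, and were found on the arrays through the RefSeq accessions of their probes. All 10 were present, with 13 of 39429 probes and among 19751 named genes. All 13 probes passed the scanner software's test of being well above their background in 28 of 28 channels. Liver RNA came from untreated CD-1 mice, an outbred stock, in 6 groups: males (M3) and females (F3) aged 3 wk, males (M4) and females (F4) aged 4 wk, and males (M8) and females (F8) aged 8 wk. Each group was represented by 2 pools, of 5 mice each at 3 wk and of 6 mice each at 4 wk and 8 wk, so a pool and not a mouse is the unit. Each of 7 comparisons, 3 between the sexes at an age and 4 between 8 wk and an earlier age within a sex, set the pools of both groups against each other on 2 Agilent arrays, with the dyes exchanged between the arrays. A comparison is written as one group over another, such as M8/F8. Values are log2 expression ratios, male over female or older over younger. A call needed a limma adjusted p below 0.05, a ratio beyond 1.5 or 0.667, and a signal that was well above background on both arrays in either group.

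The liver controls the body's iron through hepcidin, a peptide hormone that hepatocytes secrete and that Hamp encodes. Hepcidin binds ferroportin (Slc40a1), the only known exporter of iron from cells, and causes its degradation, so that less iron leaves the gut, macrophages and hepatocytes. Its transcription responds to the ligand BMP6 from sinusoidal endothelial cells, to HFE and transferrin receptor 2 (Tfr2), which sense iron-loaded transferrin, and to interleukin 6 through STAT3, and it is restrained by SMAD7. The mouse carries a duplicate gene, Hamp2, whose product is not known as an iron-regulating hormone.

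Hamp lies at chr7:30942368-30944029 and Hamp2 at chr7:30922372-30924181 of GRCm38.p6, 18186 bases apart on the minus strand. Because the copies are alike, the probe assigned to each is shown first, 5′ to 3′. Capitals mark the bases that differ when the probes are set side by side without gaps. They also mark the first base of the Hamp probe and the last of the Hamp2 probe, which have no partner.
Hamp probe: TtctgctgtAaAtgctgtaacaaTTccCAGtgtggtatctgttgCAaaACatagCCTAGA
Hamp2 probe: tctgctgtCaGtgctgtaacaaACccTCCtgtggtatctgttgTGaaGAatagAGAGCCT
Of 59 bases aligned, 42 were identical (71.2%), and the longest run shared by both was 14 bases. Signal of one transcript on the probe of the other was not measured.

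The 250 bases before the annotated start of each copy, from RefSeq on GRCm38.p6, are shown because Hamp was called up and Hamp2 down in M8/M3. The ratios of these genes were not tested against each other. In capitals are the letters GGCGCC, the core of the BMP response element, and TTCNNNGAA, the spacing to which STAT factors bind, in Hamp, and the bases at the same aligned places in Hamp2. The Hamp window is chr7:30944030-30944279 and the Hamp2 window chr7:30924182-30924431, both on the minus strand.
Hamp upstream: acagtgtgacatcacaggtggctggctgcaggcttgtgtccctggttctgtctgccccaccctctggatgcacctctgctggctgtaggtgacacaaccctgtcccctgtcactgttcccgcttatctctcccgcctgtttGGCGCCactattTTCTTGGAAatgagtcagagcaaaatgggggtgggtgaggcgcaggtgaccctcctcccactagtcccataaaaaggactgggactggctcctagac
Hamp2 upstream: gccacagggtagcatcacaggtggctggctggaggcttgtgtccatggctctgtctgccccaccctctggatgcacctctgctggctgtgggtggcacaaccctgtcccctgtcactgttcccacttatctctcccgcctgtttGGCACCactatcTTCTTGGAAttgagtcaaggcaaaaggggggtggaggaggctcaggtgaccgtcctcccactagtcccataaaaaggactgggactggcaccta
The windows were identical at 227 of 247 aligned bases (91.9%). GGCGCC began 109 bases before the start of Hamp. The corresponding letters of Hamp2 carried the substitution G4A, counted from the 5′ end of the motif with the base of Hamp first, so that GGCGCC was not found in its window. TTCTTGGAA was present in both, 97 bases before the start of Hamp and 94 bases before that of Hamp2. Both motifs read the same on either strand, and they do not overlap in these windows. Among 32851 promoter windows of the same length, 9.6% held GGCGCC, 7.0% held TTCNNNGAA and 0.4% held both. Of the 7 iron genes with a promoter sequence, GGCGCC was also found in a window of Tfrc, and TTCNNNGAA in no other. These matches describe the letters only.

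**Figure D1:**
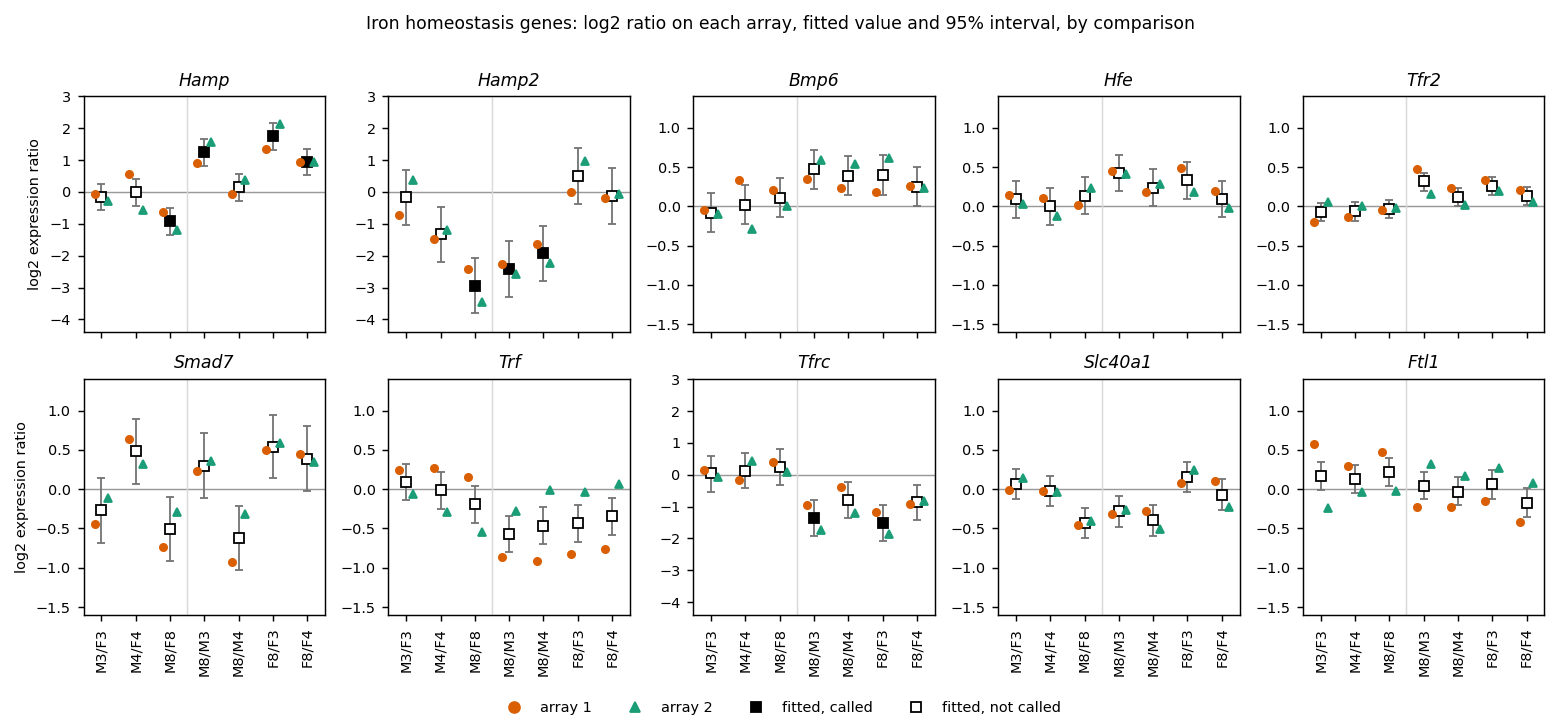
Log2 expression ratio (vertical axis; the range is wider for Hamp, Hamp2 and Tfrc) of each of the 10 genes in the 7 comparisons (horizontal axis). Circles and triangles are the 2 arrays, squares the fitted value, filled where called, with its 95% interval; Hamp2 reached -2.94 in M8/F8, and calls were made for Hamp, Hamp2 and Tfrc alone.

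In all, 3 of the 10 genes (Hamp, Hamp2 and Tfrc) were called in at least 1 comparison and 7 in none, while 3540 of all 19751 named genes were called in at least 1. In M3/F3 no member was called, where 0.517% of all genes tested were called (0.180% up and 0.337% down), and limma gave 0 members an unadjusted p below 0.05. The error-weighted mean, tried as an alternative, called 0 members there. In M4/F4 no member was called either (1.59% of all genes, 0.619% up and 0.971% down), with 2 members (Hamp2 and Smad7) at an unadjusted p below 0.05, and the error-weighted mean called 1, Hamp2. The share of all genes called by the error-weighted mean was not obtained. In M8/F8 2 members were called, both lower in males, against 6.42% of all genes (2.67% up and 3.75% down).

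Age gave 3 calls from 3 wk to 8 wk in males, 1 up and 2 down, against 17.9% of all genes (7.84% up and 10.0% down). From 4 wk in males 1 member was called, down, against 10.8% (4.45% up and 6.37% down). The females had 2 called members from 3 wk, 1 in each direction, against 11.7% (5.09% up and 6.65% down), and 1 from 4 wk, up, against 6.01% (2.29% up and 3.72% down). The median ratio of the 10 genes was 0.17 from 3 wk and -0.21 from 4 wk in males, 0.30 and 0.01 in females, and -0.11 in M8/F8, and that of all genes 0.00 to 0.02. With 10 genes, these counts say nothing about the list as a whole.

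Hamp, the hepcidin gene, rose with age in both sexes and was lower in males than in females at 8 wk. In M8/F8 its log2 ratio was -0.63 on array 1 and -1.21 on array 2. Both arrays were thus below 0, with a mean of -0.92 ± 0.41 (SD, n = 2) and a level 1.90-fold lower in males (limma adjusted p = 0.0149). At 3 wk the ratios of -0.07 and -0.27 gave no call (adjusted p = 0.689), and at 4 wk the arrays lay on opposite sides of 0, at 0.55 and -0.58 (adjusted p = 1).

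From 3 wk to 8 wk Hamp rose in females by 1.35 and 2.14 on the log2 scale on the 2 arrays, which is 3.36-fold in the fit (1.75 ± 0.56, SD, n = 2; adjusted p = 0.00131). In males it rose by 0.91 and 1.56, or 2.36-fold (1.24 ± 0.46, SD, n = 2; adjusted p = 0.00486). The difference between these age ratios, males minus females, was -0.44 and -0.58 on the arrays and was not called (fit -0.51, 95% interval -1.10 to 0.08, adjusted p = 0.349; 3.38% of all genes were called for this interaction, 1.64% up and 1.74% down).

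From 4 wk to 8 wk the increase was called in females, with 0.94 and 0.95 on the arrays (1.93-fold, adjusted p = 0.0136). In males the values were -0.07 and 0.36, with no call (fit 0.14, 95% interval -0.27 to 0.56, adjusted p = 0.759). The sexes were not shown to differ in this step, because the difference itself (fit -0.80, 95% interval -1.39 to -0.21) had an adjusted p of 0.223 (1.33% of all genes were called, 0.745% up and 0.580% down). The 3 wk and 4 wk pools were not hybridized together. Through the shared 8 wk pools, Hamp was higher at 4 wk by 1.09 in males (adjusted p = 0.127) and 0.80 in females (adjusted p = 0.324), neither called, where 0.294% (0.114% up and 0.180% down) and 0.0941% (0.0269% up and 0.0672% down) of all genes were called. Of the 10 genes, 0 were called in these indirect contrasts, with 3 in males (Hamp, Tfr2 and Smad7) and 1 in females (Hamp) at an unadjusted p below 0.05. A fit whose covariance held the shared pools called 2 in males, Hamp and Smad7. The share of all genes called under that fit was not obtained.

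The calls of Hamp differed in how firmly they stood. Without either array of M8/F8 the sex difference was still -0.95 and -0.90 but no longer called (adjusted p = 0.0889 and 0.103), and without the dye term of the model it was lost too (adjusted p = 0.108). Without the dye term (adjusted p = 0.0998) or without array 1 (adjusted p = 0.143) the F8/F4 call was lost as well, and without array 2 that in M8/M3 was (adjusted p = 0.0509). Its dye term was 0.27 on the log2 scale, above that of every other of the 10 genes but Trf.

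On the scale of single channels, normalized between all arrays, the log2 level of Hamp was 15.46 and 16.03 in the F3 pools, 16.16 and 16.27 in F4 and 16.98 and 17.19 in F8. In males it was 15.43 and 16.02 in M3, 16.20 and 16.57 in M4 and 16.40 and 16.61 in M8. The F8 pools lay above all others. The pools of M8 overlapped with those of M4, and M4 with F4, while the F3 and M3 pools overlapped with each other below them.

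**Figure D2:**
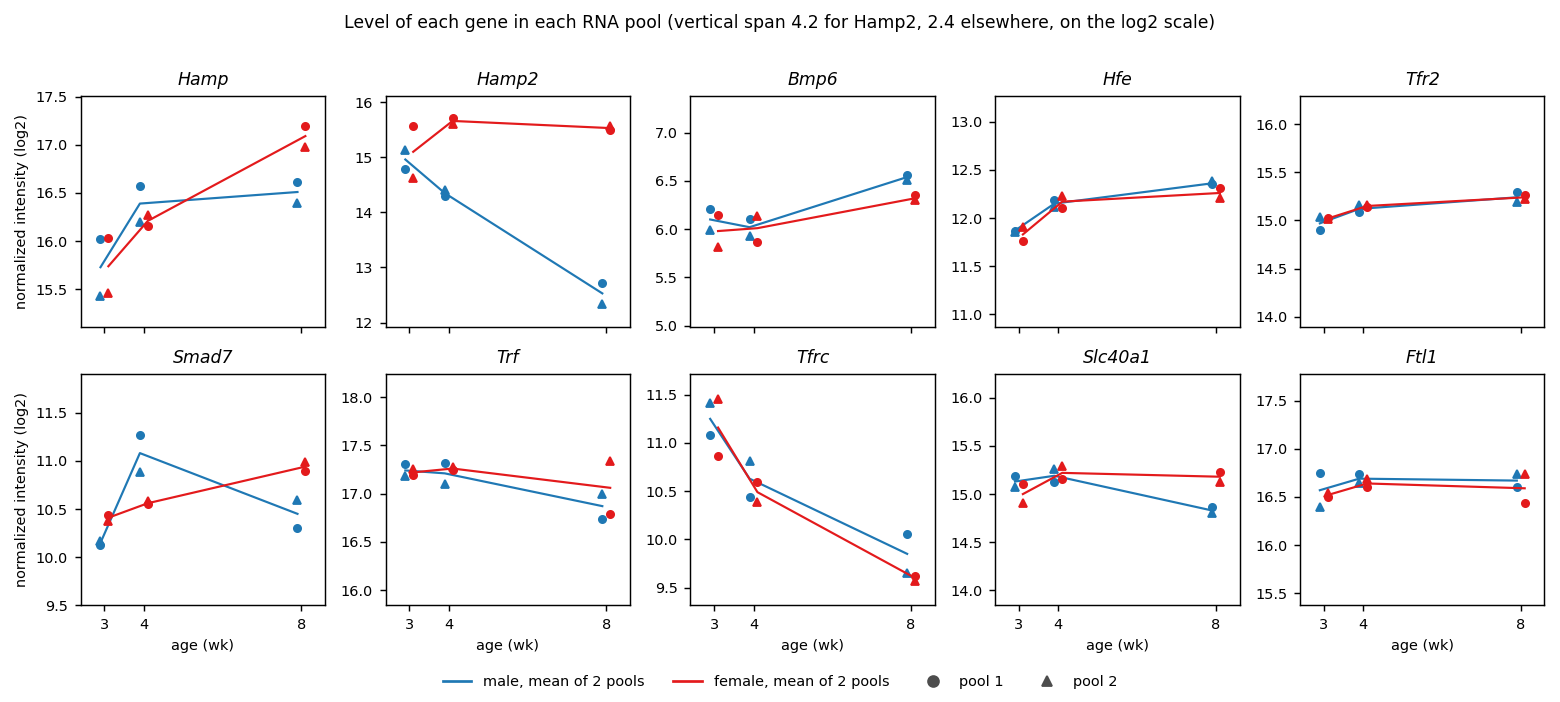
Log2 level of each gene in each RNA pool (vertical axis, normalized intensity) against age in weeks (horizontal axis), males in blue and females in red; points are pools and lines join the means of 2 pools. The vertical span is larger for Hamp2, where the M8 pools lay at 12.33 and 12.72, below all other pools.

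Hamp2, the second hepcidin gene, showed the largest difference of the 10. It was 7.66-fold lower in males than in females at 8 wk, with log2 ratios of -2.43 and -3.45 (-2.94 ± 0.72, SD, n = 2; limma adjusted p = 0.00305). At 4 wk males were lower on both arrays too, at -1.48 and -1.19 (fit -1.33), which missed the threshold (adjusted p = 0.058) but was called under 5 of the alternative settings. At 3 wk the arrays disagreed, at -0.71 and 0.36 (adjusted p = 0.953).

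The sex difference went with a decrease in males. Hamp2 fell in M8/M3 on both arrays, with ratios of -2.25 and -2.59 (5.36-fold, adjusted p = 0.00642), and in M8/M4, with ratios of -1.62 and -2.24 (3.81-fold, adjusted p = 0.0153). In females the values were 0.01 and 0.98 in F8/F3 (fit 0.50, 95% interval -0.38 to 1.37, adjusted p = 0.498) and -0.20 and -0.08 in F8/F4 (fit -0.14, 95% interval -1.01 to 0.74, adjusted p = 0.997). No change was called in females, though the intervals reach a 2-fold change and more. The difference of the 3 wk to 8 wk ratios between the sexes was -2.26 and -3.57 on the arrays and was called (fit -2.92, SE 0.52, adjusted p = 0.03), as the only interaction among the 10 genes. That from 4 wk to 8 wk was -1.42 and -2.16 (fit -1.79, 95% interval -3.03 to -0.55) and not called (adjusted p = 0.197), and no other member was called in it, with 4 members at an unadjusted p below 0.05.

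The order of the 6 groups for Hamp2 was F4, F8, F3, M3, M4 and M8. The F4 pools, at 15.60 and 15.71, were just above those of F8, at 15.49 and 15.57. The M8 pools, at 12.33 and 12.72 on the log2 scale, were apart from the M4 pools, at 14.30 and 14.41, and these from the M3 pools, at 14.79 and 15.14. The F3 pools spanned 14.63 to 15.56 and overlapped with those of F8 and of M3. The M8/F8 call held without either array (fits -3.55 and -2.32, adjusted p = 0.00812 and 0.0304). That in M8/M4 was lost without array 1 (adjusted p = 0.0556) or 2 (0.15) and with the slide as a block (0.0505), that in M8/M3 without array 2 (0.0661), and the interaction without any 1 of its 4 arrays (adjusted p = 0.0602 to 0.141) and with the slide as a block (0.0781). The dye term of Hamp2 was -0.01.

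The genes whose ratios ran most like those of Hamp over the 14 arrays were Rida (Pearson r = 0.977), Nr1i3 (0.972) and Nr5a1 (0.970), and those most like Hamp2 were Arpc5 (0.985), Rassf7 (0.978) and Nipal1 (0.975), among 12848 genes. The arrays share pools, so these r are a description. Likeness of pattern did not mean likeness of size, since the M8/F8 ratio was -0.21 for Arpc5, -0.31 for Rassf7 and -2.47 for Nipal1.

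None of the 4 regulators of hepcidin among the 10 genes was called in any of the 7 comparisons. Bmp6, the BMP ligand of the iron response, had M8/M3 ratios of 0.35 and 0.59 (fit 0.47, adjusted p = 0.0274) and F8/F3 ratios of 0.18 and 0.62 (fit 0.40, adjusted p = 0.05), so that the male value was past the p threshold but under the fold threshold. Hfe, the gene most often mutated in human haemochromatosis, had M8/M3 ratios of 0.45 and 0.41 (fit 0.43, adjusted p = 0.0314) and F8/F3 ratios of 0.49 and 0.18 (fit 0.33, adjusted p = 0.0718). Tfr2 had M8/M3 ratios of 0.47 and 0.16 (fit 0.32, adjusted p = 0.00618) and F8/F3 ratios of 0.33 and 0.19 (fit 0.26, adjusted p = 0.0134). These 3 genes were above 0 on both arrays of both comparisons, with fits under 1.5-fold, and none was past the p threshold in a sex comparison (fits from -0.08 to 0.13, adjusted p = 0.408 or higher). The Bmp6 probe was dim, with intensities of 42.7 to 108 over the 28 channels.

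Smad7, the inhibitory SMAD that BMP signalling itself induces, had a different order. Males were above females at 4 wk on both arrays (0.64 and 0.32, fit 0.48, adjusted p = 0.129) and below them at 8 wk (-0.74 and -0.29, fit -0.51, adjusted p = 0.107). The M8/M4 ratio was -0.93 and -0.32 (fit -0.62, adjusted p = 0.0589) and the F8/F4 ratio 0.45 and 0.34 (fit 0.39, adjusted p = 0.207). The sexes thus moved in opposite directions on all 4 arrays, and the interaction was -1.01 (95% interval -1.59 to -0.43, adjusted p = 0.124), not called. In M8/M4 it was called in 7 of the alternative settings, among them adjustment within the comparison (adjusted p = 0.0441) and the fit without array 2 (-0.96, adjusted p = 0.0356), while without array 1 it was -0.29 (adjusted p = 0.485). The interaction was called with the shared pools in the covariance (0.0395). The M4 pools, at 11.27 and 10.88 on the log2 scale, had the highest mean and overlapped with those of F8, while the M3 pools, at 10.13 and 10.17, lay below all others.

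Tfrc, the transferrin receptor through which dividing and haem-making cells take up iron, fell with age in both sexes and was not called between them at any age. Its M8/M3 ratio was -0.96 and -1.74 (fit -1.35, ratio 0.392, adjusted p = 0.0112), and its F8/F3 ratio -1.17 and -1.85 (fit -1.51, ratio 0.351, adjusted p = 0.00727). From 4 wk the ratios were -0.38 and -1.19 in males (fit -0.79, adjusted p = 0.0774) and -0.93 and -0.81 in females (fit -0.87, adjusted p = 0.0556), both under 0 on each array and not called with this probe, which was spotted 10 times. The female value was called in 5 of the alternative settings, among them the replicate number as a block (adjusted p = 0.048) and normexp and loess (0.0187). The male value was called in 4, among them normexp and loess (0.0282) and the shared pools in the covariance (0.0197). Both dimmer probes of Tfrc were called down in all 4 age comparisons, with fits of -0.80 to -1.34 in males and -0.80 to -1.37 in females. The interval of the interaction from 3 wk to 8 wk was -0.64 to 0.96. Without array 2 the calls in M8/M3 (adjusted p = 0.119) and F8/F3 (0.0819) were lost. The order was M3, F3, M4, F4, M8 and F8, where the pools of both sexes overlapped at 3 wk and at 4 wk.

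Trf encodes transferrin, the iron carrier of plasma that hepatocytes secrete. Its ratios depended on the dye more than those of any other of the 10 genes (dye term 0.33). The M8/M3 ratio was -0.86 on array 1 and -0.28 on array 2 (fit -0.57, ratio 0.674, adjusted p = 0.0106), just under the fold threshold, while the second probe gave -0.78 and -0.51 (fit -0.64, adjusted p = 0.018) and was called. In M8/M4 (fit -0.47, adjusted p = 0.0224) and F8/F3 (fit -0.43, adjusted p = 0.0296) the adjusted p was below the threshold too, but the second array was near 0, at -0.01 and -0.04. The second probe missed the p threshold in M8/M4 (fit -0.48, adjusted p = 0.0528) and in F8/F3 (fit -0.32, adjusted p = 0.168). Its F8/F3 arrays lay on opposite sides of 0, at -0.71 and 0.07. All neighbouring groups overlapped in their pools.

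Slc40a1, ferroportin, was lower in adult males by less than the fold threshold. Its M8/F8 ratio was -0.46 and -0.40 (fit -0.43, SE 0.08, ratio 0.742, adjusted p = 0.0148) and its M8/M4 ratio -0.28 and -0.51 (fit -0.39, adjusted p = 0.0208). The F8/F3 and F8/F4 fits were 0.16 and -0.07 (adjusted p = 0.275 and 0.763), and the interaction from 3 wk to 8 wk was -0.39 and -0.50 on the arrays (fit -0.44, adjusted p = 0.0919). The M8 pools, at 14.87 and 14.80, were below the pools of every other group, and the 5 other groups overlapped in turn. Ftl1, the light chain of ferritin, in which cells store iron, had group means within 16.52 to 16.69. Its fits ran from -0.17 to 0.22 over the 7 comparisons and none was past the p threshold. Its dye term was 0.25. Apart from Tfrc, none of the genes of iron transport and storage among the 10 differed by 1.5-fold between groups with its main probe in the main fit. With normexp and loess, Trf did in M8/M3 (-0.63, limma adjusted p = 0.00765) and was called.

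In liver, a mixture of cells, fewer cells of a type and less RNA per cell cannot be told apart, so marker genes are given beside these results. Of 10 genes of cell division, 10 were called down in each of the 4 age comparisons, with medians from -2.98 to -3.74, and their summed intensity was 22100 to 22300 in the M3 pools and 1450 to 1760 in the M8 pools. Of the erythroid genes, 5 of 9 were called down and 1 up in M8/M3, and 7 of 10 were called down in F8/F3. The gene called up was Alas2, the first enzyme of haem synthesis in erythroid cells (M8/M3 fit 1.37, adjusted p = 0.00229), which with Tspan33 was also higher in males at 8 wk (fits 1.89 and 0.83). Klf1 and Ermap had M8/M3 fits of -0.15 and 0.21 and F8/F3 fits of 0.70 and 0.12 without a call. The summed intensity of the list was 77500 to 80500 in M3, 47500 to 50400 in M8, 74900 to 75000 in F3 and 39100 to 42000 in F8. Epb42 and Rhag were not well above background in M8 or F8. Tfrc fell in M8/M3 and F8/F3, where the cell division list and some of the erythroid genes did, and their part in its result was not tested.

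The 7 genes of Kupffer cells, the macrophages of the liver and a site of ferroportin expression, were all below 0 in M8/F8 (median -0.59) and 4 of them were called, Marco at -1.05, Timd4 at -0.67, Adgre1 at -0.65 and Clec4f at -0.59. Their summed intensity was 20700 to 26100 in the M8 pools and 32900 to 35400 in the F8 pools. All 7 were well above background in every group. In M3/F3 and M4/F4 the medians of the list were -0.28 and -0.27, where Slc40a1 had fits of 0.06 and -0.02, and Marco was called in M4/F4 (fit -0.69). In M8/M3 and M8/M4 all 7 were below 0 and 2 were called in each, with medians of -0.44 and -0.53, where Slc40a1 had fits of -0.28 and -0.39. The part of these genes in the values of Slc40a1 was not tested. Of the 9 sinusoidal endothelial genes, 0 were called in M8/F8 (7 had a fit below 0; median -0.09) and 1 of 9, Lyve1, in M8/M3 (fit -1.20, median of the list -0.20). Their part in the values of Bmp6 was not tested.

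Hepcidin also belongs to the acute phase, so its values are set beside 9 acute phase genes. In M8/F8 1 was called, Apcs at -0.74, with a median of -0.21. In F8/F3 2 were called up, Orm1 at 0.80 and Orm2 at 0.83 (median 0.36). The metallothionein gene Mt2 was the highest of the list in F8/F3 (2.98 and 1.96, fit 2.47) and the lowest in M8/F8 (-3.47 and 0.57, fit -1.45), without a call. In M8/M3 the same genes were called up and Apcs down (median 0.80). The serum amyloid genes Saa1 and Saa2, the most inducible of the list, had M8/M3 ratios of 1.27 and 3.06 and of 1.65 and 3.43 without a call, M8/F8 fits of 0.99 and 1.07 and F8/F3 fits of 0.37 and 0.36. The summed intensity of the list was 309000 to 489000 in the M8 pools and 447000 to 448000 in the F8 pools. Their part in the result for Hamp was not tested. The 8 hepatocyte genes were well above background in every group. In M8/F8 0 of them were called, with a median of -0.40 and fits from -0.57 (Alb, albumin) to 0.40 (Apoa1). Alb (limma adjusted p = 0.013), Cps1 (fit -0.52, 0.00351), Serpinc1 (-0.38, 0.00335) and Tat (-0.41, 0.000885) were past the p threshold there, lower in males by less than 1.5-fold. Apob (-0.54), and Ttr, Fga and Apoa1 with fits above 0, were not past it. With age Alb was called down in M8/M3 (fit -0.71) and M8/M4 (fit -0.68) and Tat up in F8/F4 (fit 0.65). The medians of the list in M8/M3, M8/M4 and F8/F4 were -0.18, 0.06 and -0.05. Their part in the values of Hamp, Hamp2 and Slc40a1 was not tested. The Y-linked genes Ddx3y, Eif2s3y and Uty and the X-inactivation gene Xist were called in the labelled direction in all 3 sex comparisons.

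**Figure D3:**
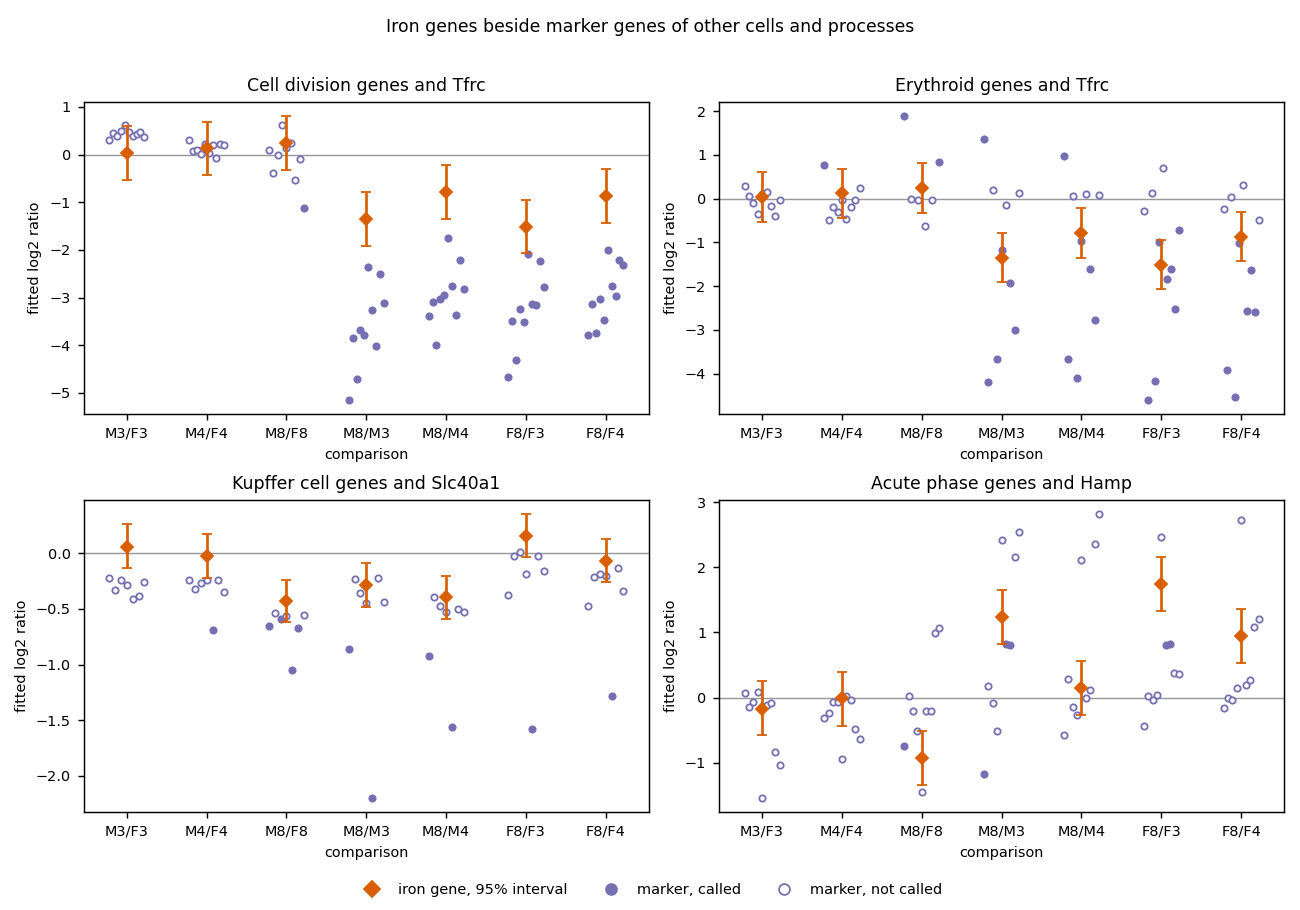
Fitted log2 ratio (vertical axis) of Tfrc, Slc40a1 and Hamp (diamonds, 95% interval) in the 7 comparisons (horizontal axis), beside marker genes of cell division, erythroid cells, Kupffer cells and the acute phase (circles, filled where called). All 10 cell division genes were called down in the 4 age comparisons, and all 7 Kupffer cell genes were below 0 in M8/F8.

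Beyond the 10 genes, a wider list of 74 genes of iron handling was examined, all of them on the arrays. Of these, 16 were called in at least 1 comparison, beside 3540 of all 19751 named genes. The list gave 0 calls of 71 genes tested in M3/F3 (8 at an unadjusted p below 0.05 with limma), 3 of 70 in M4/F4 and 5 of 71 in M8/F8, beside 0.517%, 1.59% and 6.42% of all genes tested. With age there were 9 calls of 71 and 6 of 72 in males, from 3 wk and from 4 wk, and 8 of 71 and 2 of 72 in females, beside 17.9%, 10.8%, 11.7% and 6.01% of all genes tested. The 3 genes called in M4/F4 were Fgl1, Bmp4 and Il6ra, and 0 of them were called with p-values adjusted within each comparison or without array 1 of M4/F4. The median ratio of the list ran from -0.02 to 0.15 over these comparisons, and that of all genes from 0.00 to 0.02.

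The widest range among them was that of Scara5, a receptor that takes up ferritin. It was higher in males at 8 wk, with ratios of 2.35 and 3.25 (fit 2.80, adjusted p = 0.00196), rose in M8/M3 (1.48 and 1.59) and M8/M4 (fit 1.71) and fell in F8/F3 (-1.41 and -1.80). The interaction from 3 wk to 8 wk was 3.14 (adjusted p = 0.0144), and that from 4 wk to 8 wk, 2.09 (adjusted p = 0.0874), was not called.

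The list of hepcidin regulation by BMP and SMAD held 23 genes. Fgl1, a secreted protein that binds BMP6 and lowers the induction of hepcidin, was lower in males at 8 wk (-2.06 and -1.92, fit -1.99, adjusted p = 0.000364) and at 4 wk (fit -0.60, adjusted p = 0.0303), and fell in M8/M3 (fit -1.29) and M8/M4 (fit -1.11). Id1, a target gene of SMAD signalling in hepatocytes, was lower in males at 8 wk (-1.20 and -1.14, fit -1.17, adjusted p = 0.00129) and fell in M8/M3 (fit -0.65) and M8/M4 (fit -0.97), while its female fits were 0.40 and 0.41 without a call. Both had a called interaction from 3 wk to 8 wk (-1.77 for Fgl1, adjusted p = 0.00717, and -1.06 for Id1, adjusted p = 0.0205) and from 4 wk to 8 wk (-1.28 and -1.38, adjusted p = 0.0324 and 0.0163).

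Atoh8, Id2 and Fstl1 were called with age in both sexes. Atoh8, a transcription factor that responds to BMP signals, rose in M8/M3 (1.41 and 1.67, fit 1.54) and F8/F3 (0.80 and 1.05, fit 0.93) and, through the shared pools, in M4/M3 (1.65 and 1.35, adjusted p = 0.0265). Id2 rose in M8/M3 (fit 0.87) and F8/F3 (fit 0.60), and Fstl1, a secreted glycoprotein of the follistatin family, fell in all 4 age comparisons (fits from -1.19 to -1.73). Furin, a protease that cuts prohepcidin, rose in M8/M3 (fit 0.59), and the ligand Bmp4 was higher in males at 4 wk (fit 0.62, adjusted p = 0.0164). Of the genes without a call, 3 are named for their role, after their values were seen. Hemojuvelin (Hjv), the BMP coreceptor of the iron response, and Tmprss6, the protease that cleaves it, had fits from -0.15 to 0.29. Erfe, the erythroid hormone that lowers hepcidin, was well above background on both arrays in no group and was not tested for a call.

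Of the 6 genes of inflammatory regulation, Il6ra, the interleukin 6 receptor, was lower in males at 4 wk (-0.61 and -1.17, fit -0.89, adjusted p = 0.0199). Inhbb, the activin B subunit, was lower in males at 8 wk (-0.59 and -0.59, fit -0.59, adjusted p = 0.00732) and fell in M8/M3 (fit -1.01). Its interactions were called at -0.77 (adjusted p = 0.0269) and -0.75 (adjusted p = 0.0499).

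Of the 14 genes of membrane transport, reduction and oxidation, Heph, a ferroxidase that works with ferroportin, fell in all 4 age comparisons (fits from -0.61 to -1.02). Slc11a2, the importer of ferrous iron, fell in F8/F3 (fit -0.69) and Cybrd1, a ferric reductase, in M8/M4 (fit -0.68), with an interaction of -0.77 (adjusted p = 0.0411). Among 8 genes of haemoglobin and haem handling, Flvcr1, described as a haem exporter, fell in F8/F3 (fit -0.76), and the related Flvcr2 was lower in males at 8 wk (fit -0.74). Of 7 genes of storage and chaperones, Pcbp4, of the family of iron chaperones, rose in F8/F3 (fit 0.66). None of the 3 iron regulatory protein genes and none of the 13 genes of mitochondrial iron and iron-sulphur clusters was called in any of the 7 comparisons, and the mitochondrial fits lay between -0.36 and 0.55.

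**Figure D4:**
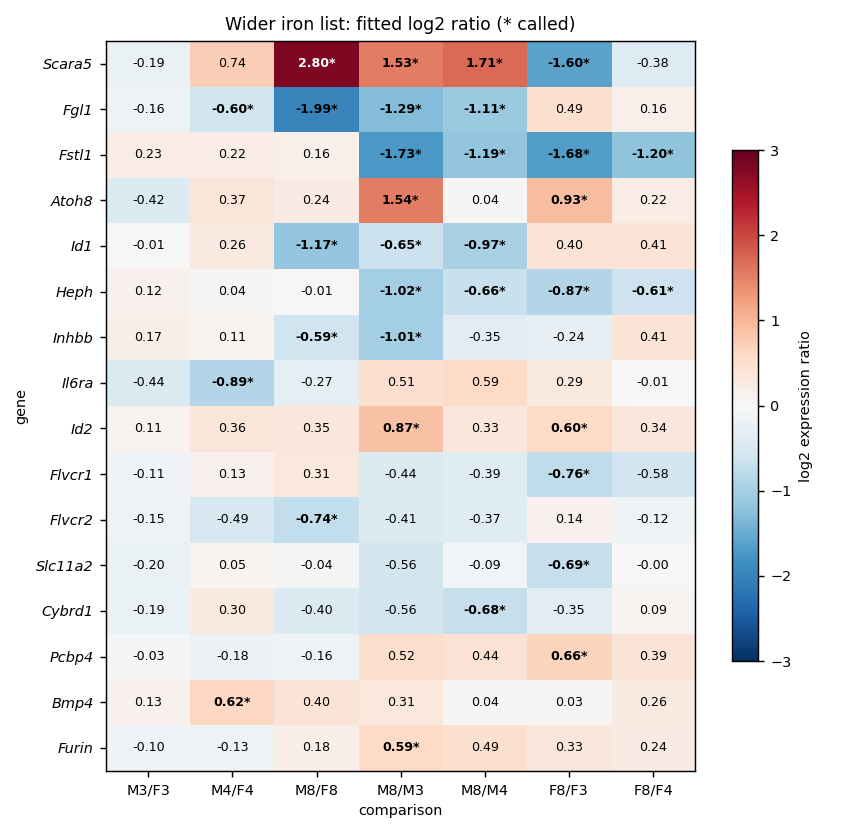
Fitted log2 expression ratio (colour and number; an asterisk and bold type mark a call) of the 16 called genes of the wider iron list (rows) in the 7 comparisons (columns). Scara5 was highest at 2.80 and Fgl1 lowest at -1.99, both in M8/F8.

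The design allowed a check of array error, because the same pools met on different arrays. For each of the 10 genes and each replicate number, the sex difference of the age ratios was obtained by 2 routes, from the age arrays and from the sex arrays, with 3 wk and with 4 wk. The 40 differences between routes had a median size of 0.06 and a largest size of 0.54 on the log2 scale, for Hamp2 with 3 wk. For Hamp2 the routes gave -2.26 and -1.72 on the first pools and -3.57 and -3.81 on the second, so the pools differed by more than the routes did.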

How the data were processed

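Liver RNA of 6 groups was hybridized on 14 2-colour Agilent arrays, 2 per comparison with the dyes swapped. Per the file headers, the deposited log10 ratios of red over green signal were made with Feature Extraction 10.7.1.1 with the background subtracted and the dyes normalized array by array (linear, then LOWESS), and the deposited processed intensities come from the same step. The log10 ratios were turned to log2 and oriented male over female or older over younger from the labelled dyes. Control spots and outlier spots (162 to 282 per array) were left out and spots of a probe averaged. No spot was saturated, and 55.2% to 77.2% of spots per channel were well above background. Precision is limited by 2 arrays per comparison.

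limma 3.58.1 in R 4.3.3 (lmFit, eBayes) fitted 7 comparisons and a dye term to all 39429 probes, with Benjamini-Hochberg adjustment over probes and comparisons together. Interactions and the indirect 4 wk to 3 wk contrasts were adjusted within each. The brightest probe stood for a gene. Named genes were all 10 members, called genes of a wider iron list and, for members called in 3 or more comparisons, the 3 genes of most similar ratios. The members and lists were chosen with earlier results of these data known. Pool levels are log2 intensities after quantile normalization (Aquantile) between arrays. The fit was tested on simulated data. RefSeq promoter sequences are of GRCm38.p6.

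The same numbered pools were reused across comparisons, per the series' design. Array deviations correlated at 0.15 to 0.68 between comparisons with a pool on the same side, at -0.53 to -0.43 with a pool on opposite sides and at -0.29 to 0.22 without a shared pool. Arrays of one number also shared a slide within a scan day. p-values therefore measure the spread between arrays of these pools. Alternatives were normexp and loess, no dye term, other call conditions, blocks for replicate number and slide, shared pools in the covariance, other probe summaries and adjustments, an error-weighted mean and leaving out each array.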

Additional observations from a re-analysis of the deposited data

Results flagged for a closer look

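The change of Hamp2 from 3 wk to 8 wk was called as different between the sexes. The difference, males minus females, was -2.92 on the log2 scale (SE 0.52, limma adjusted p = 0.03), with -2.26 on the arrays of the first pools and -3.57 on those of the second. It was tested as an interaction term. The call was lost with the slide as a block (adjusted p = 0.0781) and without any 1 of the 4 arrays of M8/M3 and F8/F3 (adjusted p from 0.0602 to 0.141).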

How the results depend on the processing

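The values of the 10 genes were recomputed 1430 times. Of these, 39 changed sign, 35 of them with an array left out, and none was called in either fit. Their largest size was 0.50 as reported. Of 234 counts, 182 stayed within 1.5 times. Called Hamp2 values in M8/F8 held throughout. The causes of the changes below were not tested. Array number limits what can be resolved.

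Counts of the 10 genes called were, as reported, 0 in M4/F4, 2 in M8/F8, and with age 3 in M8/M3 and 1 in M8/M4 against 2 and 1 in the same female comparisons. With adjusted p alone they were 7 in M8/M3, 3 in M8/M4 and 4 in F8/F3. The share of all genes called was obtained for the main setting only, so the counts under alternatives have no such share beside them. With normexp and loess, with pools shared in the covariance, with the mean over probes and with the error-weighted mean they were 1 in M4/F4, 3 in M8/M4 and 2 in F8/F4. Shared pools also gave 1 in the 4 wk to 8 wk interaction and 2 in M4/M3. Without the dye term they were 1 in M4/F4, 1 in M8/F8, 2 in M8/M4 and 0 in F8/F4, and adjusted within each comparison 2 in M8/M4. With the slide as a block they were 0 in M8/M4 and 0 in the 3 wk to 8 wk interaction. With the replicate number as a block, the pairing of pools, F8/F4 had 2, and no other call of the 10 genes changed.

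The wider list had, with adjusted p alone, 1 in M3/F3, 5 in M4/F4, 15 in M8/F8, and with age 26 and 21 in males and 26 and 13 in females, from 3 wk and from 4 wk. The shares of all genes given earlier are for the main call rule and are no background for these counts. It had 10 in M8/M4 with shared pools, 1 in M4/F4 and 1 in F8/F4 with the mean over probes, 0 in M4/F4 adjusted within comparisons and 5 there with the error-weighted mean.

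With an array left out, the 10 genes gave 1 to 1 calls in M8/F8, 0 to 3 and 0 to 2 with age in males, 1 to 2 and 0 to 1 in females, from 3 wk and from 4 wk, and 0 to 0 in the 3 wk to 8 wk interaction. The wider list gave 0 to 2 in M4/F4, 3 to 5 in M8/F8, 5 to 6 in F8/F3 and 2 to 4 in F8/F4.

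Sign changes without an array were, in M3/F3, -0.37 to 0.03 for Hamp, -0.78 to 0.43 for Hamp2, -0.20 to 0.05 for Bmp6, -0.01 to 0.18 for Hfe, -0.27 to 0.35 for Tfrc, -0.01 to 0.35 for Ftl1 and -0.12 to 0.30 for Trf. In M4/F4 they were -0.19 to 0.23 for Bmp6, -0.07 to 0.05 for Trf, -0.36 to 0.33 for Hamp, -0.16 to 0.16 for Hfe, -0.02 to 0.28 for Tfrc and -0.08 to 0.03 for Slc40a1. In M8/F8 Tfrc ran from -0.12 to 0.61 and Tfr2 from -0.12 to 0.06, in M8/M4 Ftl1 from -0.08 to 0.03 and in F8/F3 Hamp2 from -0.08 to 1.08. In F8/F4 Hfe ran from -0.01 to 0.19 and Slc40a1 from -0.21 to 0.08. In the 3 wk to 8 wk interaction the ranges were -0.02 to 0.14 for Tfr2, -0.11 to 0.43 for Tfrc, -0.07 to 0.03 for Ftl1, -0.03 to 0.17 for Bmp6 and -0.06 to 0.24 for Hfe. In that from 4 wk they were -0.27 to 0.02 for Trf, -0.20 to 0.37 for Tfrc, -0.03 to 0.02 for Tfr2 and -0.03 to 0.30 for Bmp6. Trf ran from -0.25 to 0.04 in M4/M3 and from -0.19 to 0.01 in F4/F3, and Bmp6 from -0.02 to 0.31 in F4/F3. Other sign changes were Trf in M4/F4 (0.05, mean over probes) and, with normexp and loess, Ftl1 in M8/M4 (0.01) and Bmp6 in the 3 wk interaction (-0.04) and M4/M3 (-0.13).

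With normexp, loess and Aquantile, all 60 group levels were higher by more than their SD, such as Hamp in F8 (18.03 against 17.09) and Bmp6 in M3 (7.89 against 6.10), so levels hold within a setting only. The group with the highest pool mean became M8 for Tfr2 and M3 for Trf, and the lowest F4 for Bmp6 and F3 for Hamp.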
